A study of Mus musculus with 7 samples.

Results

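The let-7 passenger strands are the 3p products of the mouse let-7 hairpins. The set comprised 10 rows, picked by name out of the 1908 mature miRNAs in each expression table: mmu-let-7a-1-3p, mmu-let-7b-3p, mmu-let-7c-2-3p, mmu-let-7d-3p, mmu-let-7e-3p, mmu-let-7f-1-3p, mmu-let-7f-2-3p, mmu-let-7g-3p, mmu-let-7i-3p and mmu-miR-98-3p, written below without the species prefix. All 10 names were present in both tables. Small RNA libraries had been made from FACS-sorted cells of papain-dissociated embryonic mouse spinal cord, in a study of miRNA expression in spinal neuron subpopulations. At E10.5, GFP-positive motoneurons of Hb9::gfp embryos (n = 2 libraries) were set against the GFP-negative spinal cells of the same genotype (n = 2). At E12.5 there was 1 library each of GFP-positive Hb9::gfp motoneurons, of tdTomato-positive V2a interneurons from Chx10::cre;Rosa26::LSL::tdTomato embryos, and of tdTomato-positive V3 interneurons from Sim1::cre;Rosa26::LSL::tdTomato embryos. The E10.5 motoneuron fraction was therefore whatever carried the Hb9 reporter. The E12.5 interneurons were cells with a history of Chx10 or Sim1 Cre, and the E10.5 comparison fraction was every other sorted cell. The labels do not say whether the E10.5 libraries came from separate litters or sorts, so the p-values capture only how far these particular libraries scatter, and that scatter may be technical.

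A miRNA hairpin is cut by Dicer into a duplex. One strand, the guide, is usually kept by Argonaute to repress target mRNAs, while the other, the passenger, is mostly degraded. let-7 is a family of guides with one shared seed that accumulates as cells leave the progenitor state; it represses cell-cycle and RNA-binding genes such as Lin28a, whose protein in turn blocks the maturation of let-7 precursors. Because several hairpins encode the same or nearly the same guide, passenger strands are often read to tell which hairpin was processed.

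The 10 mature passenger sequences are shown because their resemblance sets how far each row can report its own hairpin. They are from RefSeq (GRCm38.p6), 5′ to 3′, with the seed (bases 2 to 8) in capitals, and are grouped by seed:
let-7a-1-3p: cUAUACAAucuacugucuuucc
let-7c-2-3p: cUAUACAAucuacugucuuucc
let-7b-3p: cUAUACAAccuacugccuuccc
let-7f-1-3p: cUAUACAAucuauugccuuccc
miR-98-3p: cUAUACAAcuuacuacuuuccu
let-7d-3p: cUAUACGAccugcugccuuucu
let-7e-3p: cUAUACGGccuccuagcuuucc
let-7f-2-3p: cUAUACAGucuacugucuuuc
let-7g-3p: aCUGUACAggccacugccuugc
let-7i-3p: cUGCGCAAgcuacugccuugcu

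The 10 rows hold 9 distinct sequences and 6 seeds, and 5 rows share the seed UAUACAA. Over the 45 pairs of passengers the median edit distance was 6 bases, with a range of 0 to 11, and 4 pairs lay within 2 edits. The 9 guides of these hairpins were closer to each other. Their 36 pairs had a median of 3 edits and a range of 1 to 6, 14 pairs lay within 2 edits, and all carried a single seed. Guides of 3 of the hairpins show this, with the seed again in capitals:
let-7a-5p: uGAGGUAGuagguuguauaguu
let-7c-5p: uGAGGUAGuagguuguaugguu
let-7d-5p: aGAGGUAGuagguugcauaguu

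For let-7a-1-3p and let-7c-2-3p the expression data went against their use as reporters of separate hairpins. Their mature sequences are identical, and their deposited values were equal in every one of the 7 libraries. The E10.5 table places them in one bundle, its mark for rows that share reads, and the reads had been divided evenly between them. The first is encoded on chromosome 13 and the second on chromosome 15, but only the sum of both rows is a measurement. The hairpins are shown, from RefSeq with the shared arm in capitals, since they differ outside that arm. Mirlet7a-1 (GRCm38 chr13:48538179-48538272, minus strand) lies in an exon of the lincRNA 6720427I07Rik, and Mirlet7c-2 (chr15:85706603-85706697, plus strand) in an exon of the noncoding transcript Lncppara:
Mirlet7a-1: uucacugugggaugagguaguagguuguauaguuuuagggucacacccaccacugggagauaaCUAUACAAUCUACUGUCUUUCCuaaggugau
Mirlet7c-2: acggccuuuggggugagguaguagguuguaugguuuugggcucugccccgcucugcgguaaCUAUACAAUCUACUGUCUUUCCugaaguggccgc

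The other 8 passengers had a bundle of their own at E10.5, whereas the 9 guides lay together in a single bundle of 12 rows. Mirlet7d, whose passenger was the most abundant, lies at chr13:48536012-48536114 on the minus strand, also in an exon of 6720427I07Rik. It is 1714 nt from Mirlet7f-1, which is 261 nt from Mirlet7a-1. On chromosome 15, Mirlet7b lies 621 nt from Mirlet7c-2 in Lncppara. Mirlet7e lies in an intron of Spaca6 on chromosome 17, Mirlet7g in an intron of Wdr82 on chromosome 9, and Mirlet7i in an exon of the transcribed pseudogene D630033A02Rik on chromosome 10. Mirlet7f-2 and Mir98, 785 nt apart, lie in an intron of Huwe1 on chromosome X. All host transcripts run in the same direction as the hairpins in the GENCODE M21 annotation. The let-7d hairpin, from RefSeq, is shown with let-7d-3p in capitals:
Mirlet7d: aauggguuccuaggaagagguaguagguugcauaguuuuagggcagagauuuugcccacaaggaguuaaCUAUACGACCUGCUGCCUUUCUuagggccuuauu

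Values at E10.5 are reads scaled to a library total of 1000000 miRNA reads (RPM). Those at E12.5 are the deposited FPKM rescaled to sum to 1000000 in each library, called TPM here. Steps between low values put the depth at 493235 to 802752 reads per E10.5 library and at 3603532 to 4605338 reads per E12.5 library. At E10.5, 3 reads were therefore worth 3.74 to 6.08 RPM, and at E12.5 they were worth 0.667 to 0.844 TPM. miR-218-5p, the motoneuron miRNA, stood at 177885 and 200305 RPM in E10.5 motoneurons against 6623 and 7315 RPM in GFP-negative cells. At E12.5 it stood at 104198 TPM in motoneurons, 7558 TPM in V2a and 7282 TPM in V3. It was thus highest in each library labelled as motoneurons. The 10 mesenchymal and smooth muscle miRNAs listed as markers of other cells summed to 1571 and 424 RPM in E10.5 motoneurons and to 81413 and 94290 RPM in GFP-negative cells. The level of any miRNA in a bulk fraction cannot separate fewer cells of a type from less RNA per cell.

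**Figure D1:**
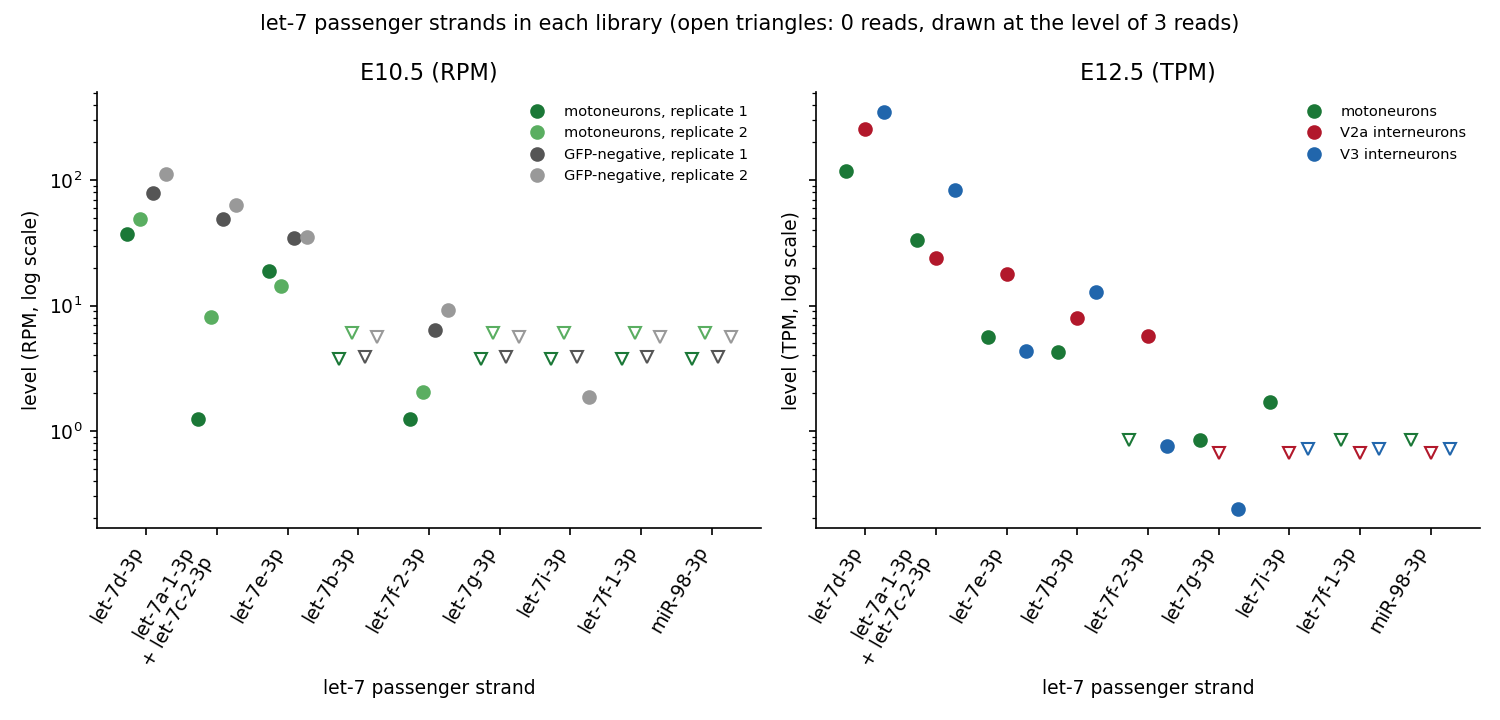
Level of each let-7 passenger strand in every library, on a log axis, in RPM at E10.5 (left) and TPM at E12.5 (right); each filled point is 1 library and open triangles mark 0 reads, drawn at the level of 3 reads. let-7d-3p was the highest passenger in all 7 libraries. At E10.5 both motoneuron libraries lay below both GFP-negative libraries for let-7d-3p, let-7a-1-3p plus let-7c-2-3p, let-7e-3p and let-7f-2-3p. The same held for 48.6% of all 492 rows tested, and let-7f-2-3p was too low to be tested.

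let-7d-3p was the most abundant passenger in all 7 libraries. It accounted for 63.8% and 66.7% of the reads of the 10 passengers in E10.5 motoneurons, against 46.6% and 50.8% in GFP-negative cells, and for 72.0%, 82.5% and 77.6% in E12.5 motoneurons, V2a and V3. Behind it, the order differed between libraries. let-7e-3p came second in both E10.5 motoneuron libraries, with 15 and 7 reads against 1 and 4 reads of let-7a-1-3p plus let-7c-2-3p. In both GFP-negative libraries the summed pair came second, with 38 and 34 reads against 27 and 19 reads of let-7e-3p, and it was second in the 3 E12.5 libraries as well. The counting intervals of the second and the third passenger overlapped in motoneuron replicate 2, in both GFP-negative libraries and in V2a, so their order was not resolved there. All 10 mature sequences are 21 or 22 nt long, so that length hardly enters this order.

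At E10.5 let-7d-3p and the pair let-7a-1-3p and let-7c-2-3p were lower in motoneurons than in GFP-negative cells, the pair by more than let-7d-3p. A filter of 15.2 RPM in at least 2 libraries left 4 of the 10 rows for testing, and 3 of those rows, holding 2 distinct sequences, were lower in motoneurons; none was higher. Among all 492 rows tested, 42.3% passed the test, 30.7% being lower and 11.6% higher. The median log2 fold change was -2.23 over the 4 passenger rows and -0.34 over all rows. Both rows of the pair enter the first median although they are 1 measurement. The values behind it were -3.33 for each row of the pair, -1.13 for let-7d-3p and -1.06 for let-7e-3p. let-7a-1-3p and let-7c-2-3p passed the filter only through the GFP-negative libraries, so they could be tested only because they were high there.

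Summed over both rows, let-7a-1-3p and let-7c-2-3p had 1.24 and 8.10 RPM in motoneurons, against 48.9 and 63.1 RPM in GFP-negative cells. These were 1 and 4 reads in motoneurons against 38 and 34 reads in GFP-negative cells. Both motoneuron libraries were far below both GFP-negative libraries, with no overlap. Among all rows tested, 48.6% lay below without overlap. With the rows of each bundle added, the log2 fold change on the log2(RPM + 1) scale was -3.65 (SE 0.71; limma, Benjamini-Hochberg adjusted p = 0.00934), where 29.5% of the 420 bundles tested were lower. Each row alone gave -3.33 (SE 0.63, limma adjusted p = 0.00607). That value was -2.51 without motoneuron replicate 1, -4.15 without motoneuron replicate 2 and -2.32 after quantile normalization. Without either GFP-negative library the rows no longer met the filter. The summed pair, like each row, reached 15.2 RPM only in the GFP-negative libraries. Its adjusted p therefore belongs to a measurement that was tested only because it was high there.

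let-7d-3p had 37.4 and 48.7 RPM in motoneurons, against 78.5 and 113 RPM in GFP-negative cells, corresponding to 30 and 24 reads against 61 and 61. The groups did not overlap, as was the case for 48.6% of all rows tested in this direction. Its log2 fold change was -1.13 (SE 0.35), 2.18-fold lower in motoneurons (limma adjusted p = 0.0391). The call was lost in several settings. The adjusted p was 0.124 without motoneuron replicate 1, 0.0588 without motoneuron replicate 2 and 0.195 without GFP-negative replicate 2. Under 3 other scalings, which put the median of all rows at -0.07 to 0.15, let-7d-3p had -0.85 to -0.75 with adjusted p from 0.0740 to 0.113.

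let-7e-3p had 18.7 and 14.2 RPM in motoneurons, against 34.7 and 35.3 RPM in GFP-negative cells. The groups did not overlap, as for 48.6% of all rows tested in this direction. Its log2 fold change of -1.06 (SE 0.38) did not pass the test (limma adjusted p = 0.0638). let-7f-2-3p had 1.25 and 2.03 RPM in motoneurons, 1 read in each library, against 6.43 and 9.28 RPM in GFP-negative cells, 5 reads in each. It lay under the filter and was not tested. let-7i-3p had 0 reads in both motoneuron libraries against 0 and 1 read in GFP-negative cells. let-7b-3p, let-7f-1-3p, let-7g-3p and miR-98-3p had 0 reads in all 4 libraries, so that levels of up to 3.74 to 6.08 RPM were not detectable.

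Added over the 10 rows, the passengers came to 58.5 and 73.0 RPM in motoneurons against 168 and 223 RPM in GFP-negative cells. The means were 65.8 ± 10.2 RPM in motoneurons and 196 ± 38.4 RPM in GFP-negative cells (SD, n = 2 each), a log2 difference of -1.57 or 2.97-fold lower in motoneurons. The exact two-sided permutation p was 0.333, the smallest that 2 against 2 libraries allow. The GFP-negative cells also held more miRNA of other cell types. All 10 mesenchymal and smooth muscle markers and the 3 skeletal muscle markers tested were lower in motoneurons, and none of either list was higher. The 4 skeletal muscle miRNAs summed to 355 and 130 RPM in motoneurons against 4192 and 3796 RPM in GFP-negative cells. The 2 endothelial miRNAs summed to 508 and 295 RPM in motoneurons against 977 and 676 RPM in GFP-negative cells. The 3 blood miRNAs summed to at most 30.9 RPM in every E10.5 library and none of them passed the filter. The 5 neuronal miRNAs summed to 27170 and 33925 RPM in motoneurons against 25724 and 21809 RPM in GFP-negative cells. Of these 5, all tested, 0 were lower and 1 was higher in motoneurons. Among all rows tested, 30.7% were lower and 11.6% higher. The part of the other cell types in the passenger differences was not tested.

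**Figure D2:**
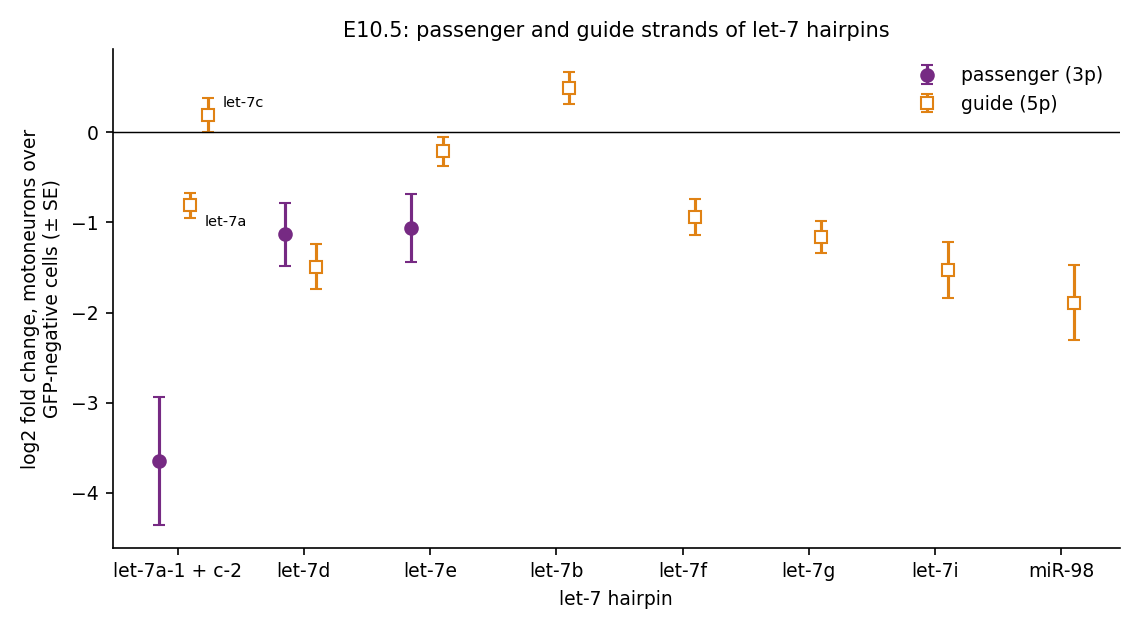
Log2 fold change of motoneurons over GFP-negative cells at E10.5 (vertical axis) for passenger strands (filled circles) and guide strands (open squares) of each hairpin; bars are ± SE from limma over 2 libraries a group. The 3 passenger values testable lay below 0, from -3.65 to -1.06, while the guides ran from -1.89 for miR-98-5p to 0.49 for let-7b-5p.

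Of the 9 guides of the same hairpins, all tested, 6 were lower in motoneurons, namely let-7a-5p (-0.81), let-7d-5p (-1.49), let-7f-5p (-0.94), let-7g-5p (-1.16), let-7i-5p (-1.53) and miR-98-5p (-1.89, log2 fold changes, limma adjusted p from 0.00261 to 0.0105). Among all 492 rows tested, 30.7% were lower and 11.6% higher. let-7b-5p (0.49), let-7c-5p (0.19) and let-7e-5p (-0.21) did not pass the test, and the sign of let-7e-5p was positive under 3 other scalings. Quantile normalization left 3 guides lower and put 3 higher. The 9 guides share reads, so how reads were divided among them could shift these values; the whole bundle of 12 rows, added, had a log2 fold change of -0.62 (limma adjusted p = 0.0155). For the passengers, the corresponding division touched the pair let-7a-1-3p and let-7c-2-3p alone.

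let-7d was the hairpin with the most even strands. Its passenger stood at 26.3% and 34.8% of the reads of both strands in E10.5 motoneurons, against 23.6% and 27.2% in GFP-negative cells. The guide let-7d-5p had 105 and 91.4 RPM in motoneurons, against 254 and 303 RPM in GFP-negative cells, so both strands of let-7d were lower in motoneurons. The passenger-to-guide log2 ratio of let-7d differed by 0.37 between motoneurons and GFP-negative cells (SE 0.34, limma adjusted p = 0.570). For let-7e the passenger made up 0.863% and 0.663% of both strands in motoneurons, against 1.47% and 1.33% in GFP-negative cells, a log2 ratio difference of -0.85 (SE 0.33, limma adjusted p = 0.305).

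let-7a-1-3p plus let-7c-2-3p made up 0.0250% and 0.155% of their reads with let-7a-5p and let-7c-5p in motoneurons, against 0.615% and 0.747% in GFP-negative cells. The exact binomial intervals at 95% confidence were 0.000633 to 0.139% and 0.0422 to 0.396% in motoneurons, against 0.435 to 0.843% and 0.518 to 1.04% in GFP-negative cells, and did not overlap; they cover counting error only. These guides are not particular to the 2 hairpins. let-7c-5p is also encoded by Mirlet7c-1, and let-7a-5p carries no hairpin number although let-7a-2-3p was read too. let-7c-1-3p had 16 and 15 reads in motoneurons and 18 and 24 in GFP-negative cells. The shares and ratios are therefore not the strand balance of let-7a-1 and let-7c-2 alone. Set against let-7a-5p, the log2 ratio differed by -2.52 for let-7a-1 (limma adjusted p = 0.175). Set against let-7c-5p, it differed by -3.52 for let-7c-2 (limma adjusted p = 0.104). Neither passed the adjustment over the 141 hairpins tested, of which 0 passed with limma with or without its mean-variance trend and 22 (15.6%) had an unadjusted p under 0.05. The median difference over these hairpins was -0.03. Which of let-7a-1 and let-7c-2 gave the reads could not be told from either strand, since the 2 guides also share reads.

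**Figure D3:**
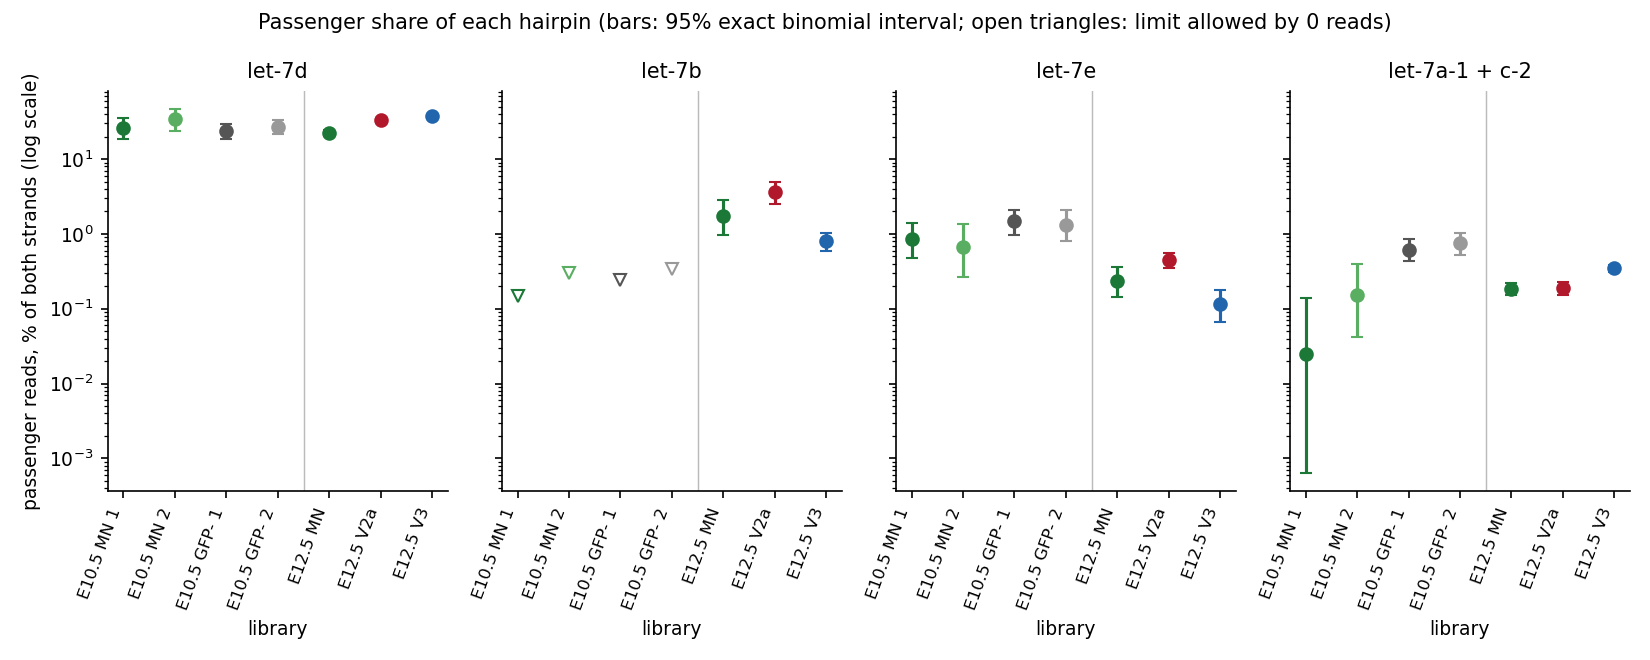
Passenger reads as a percentage of the reads of both strands (log axis) in each of the 7 libraries for let-7d, let-7b, let-7e and let-7a-1 plus let-7c-2; bars are exact binomial 95% intervals and open triangles the limit allowed by 0 reads. let-7d lay between 22.4% and 37.9% throughout, while the other 3 lay at or below 3.59%. For let-7a-1 plus let-7c-2 the guide reads are those of let-7a-5p and let-7c-5p, which are not particular to these hairpins.

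At E12.5 each population had 1 library, so the ratios below have no replicate check and no p-value; their exact 95% intervals cover counting error only. The reads behind them were recovered from FPKM values and rounded. let-7d-3p was again lowest in motoneurons, at 118 TPM against 258 TPM in V2a and 351 TPM in V3, which corresponds to 418, 1161 and 1462 reads. Its level in motoneurons was 0.460 times that in V2a (interval 0.410 to 0.515) and 0.339 times that in V3 (0.303 to 0.378). The V2a library had 0.736 times the V3 level (0.681 to 0.796). The size of these differences depended on the scaling. On the log2(TPM + 1) scale let-7d-3p had -1.13 against V2a, which was -0.87 with median-of-ratios scaling, short of 2-fold, and -1.78 on totals without the 5 most abundant miRNAs. Against V3 it had -1.57, and -2.41 on those totals. Its guide let-7d-5p varied less, at 408 TPM in motoneurons, 516 TPM in V2a and 575 TPM in V3, with the reservation that guides share reads. The passenger share of let-7d was 22.4% in motoneurons (interval 20.5 to 24.3%), 33.3% in V2a (31.8 to 34.9%) and 37.9% in V3 (36.4 to 39.5%), 3 intervals that did not overlap. They take the guide reads as counted and leave out any error in how shared reads were divided.

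The sum of let-7a-1-3p and let-7c-2-3p had 33.5 TPM in motoneurons, 23.8 TPM in V2a and 83.4 TPM in V3 (119, 107 and 347 reads). V3 stood apart from both other populations. The motoneuron level was 0.406 times that of V3 (0.327 to 0.502), and the V2a level was 0.286 times that of V3 (0.228 to 0.356). Motoneurons had 1.42 times the V2a level (1.09 to 1.86), but this direction depended on the scaling: on totals without the 5 most abundant miRNAs each row turned to a log2 ratio of -0.15, where it was 0.46 before. As a share of its reads with let-7a-5p and let-7c-5p, the pair reached 0.184% in motoneurons, 0.188% in V2a and 0.348% in V3.

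let-7e-3p followed another order, with V2a on top. It had 5.56 TPM in motoneurons, 17.8 TPM in V2a and 4.33 TPM in V3 (20, 80 and 18 reads). The V2a level was 4.12 times that of V3 (2.45 to 7.30), and the motoneuron level was 0.320 times that of V2a (0.185 to 0.527). Between motoneurons and V3 the ratio was 1.32 with an interval of 0.661 to 2.64, so no difference was detectable at this depth; its log2 value turned to -0.44 on totals without the 5 most abundant miRNAs. The guide let-7e-5p had 4008 TPM in V2a and 3805 TPM in V3, a ratio of 1.06 (1.03 to 1.08), so the passenger differed between these 2 libraries by more than its guide did. The passenger share of let-7e was 0.442% in V2a (0.351 to 0.550%) and 0.114% in V3 (0.0673 to 0.180%). Guides share reads, so the guide ratio and these shares could shift with how those reads were divided.

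let-7b showed the opposite arrangement of strands. let-7b-3p, at 0 reads in all E10.5 libraries, had 4.24 TPM in motoneurons, 7.88 TPM in V2a and 12.8 TPM in V3 (15, 35 and 53 reads). Its ratio of motoneurons over V3 was 0.335 (0.176 to 0.604), of motoneurons over V2a 0.548 (0.278 to 1.03) and of V2a over V3 0.612 (0.388 to 0.956). The guide let-7b-5p spread more widely, with 240 TPM in motoneurons, 209 TPM in V2a and 1585 TPM in V3, with the reservation that guides share reads. The passenger share of let-7b was 1.73% in motoneurons (0.971 to 2.84%), 3.59% in V2a (2.51 to 4.96%) and 0.798% in V3 (0.598 to 1.04%). In the E10.5 libraries, 0 passenger reads beside 872 to 2033 guide reads allow a share of up to 0.148 to 0.344%, below all 3 E12.5 shares. The tables were normalized separately and this difference between stages was not tested.

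let-7f-2-3p was concentrated in V2a, with 0 reads in motoneurons, 24 in V2a and 3 in V3 (0, 5.69 and 0.756 TPM). Taking 3 reads for the motoneuron library, it was 6.26-fold lower in motoneurons than in V2a. That value leaves out the counting error of the 24 reads. It was 7.42 times as high in V2a as in V3, with an interval of 2.25 to 38.5. let-7f-5p, the guide it shares with let-7f-1, had 1868 TPM in V2a and 1882 TPM in V3, a ratio of 0.994 (0.964 to 1.03). The reservation that guides share reads holds here too. let-7i-3p had 6 reads in motoneurons and 0 in V2a and V3. Taking 3 reads for each library at 0, it was 2.53-fold and 2.34-fold higher in motoneurons. The counting error of the 6 reads is left out of these values. let-7g-3p had 3, 0 and 1 reads in motoneurons, V2a and V3. let-7f-1-3p and miR-98-3p were at 0 reads in all 7 libraries, although their guides were read. The 5 rows with the seed UAUACAA thus drew their reads, 134, 142 and 400 at E12.5, from let-7a-1-3p, let-7c-2-3p and let-7b-3p alone.

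**Figure D4:**
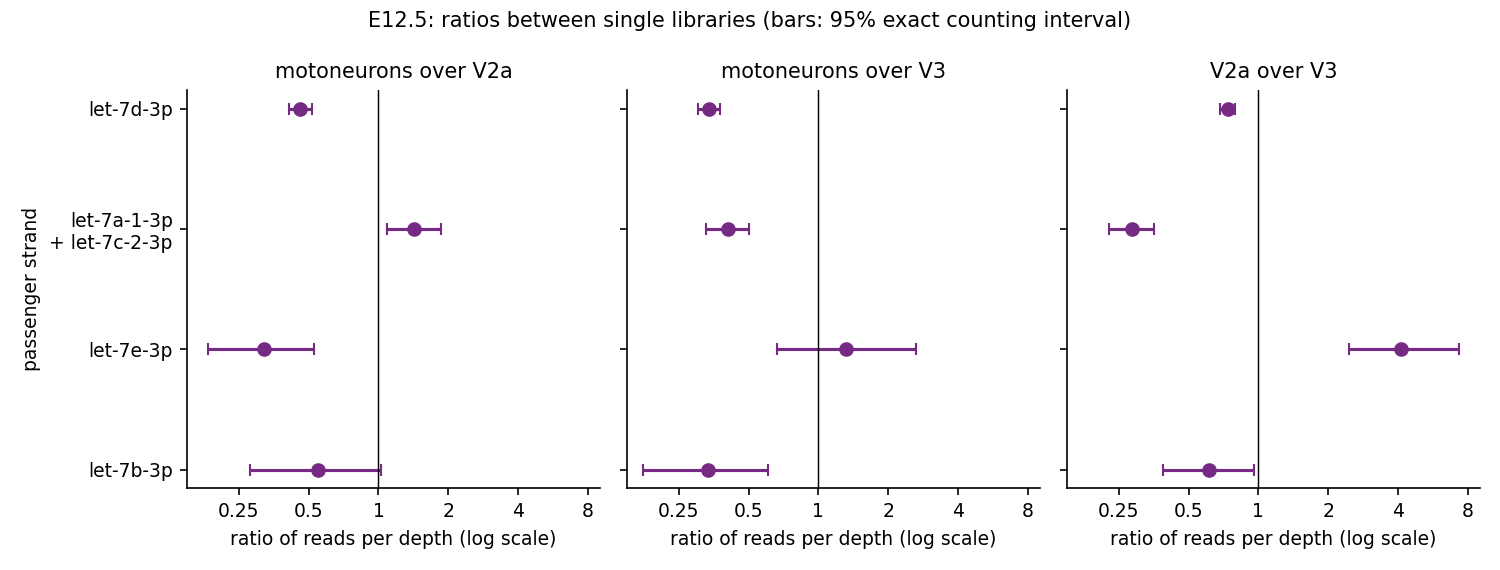
Ratios of reads per depth between single E12.5 libraries (horizontal log axis) for 4 passenger measurements, in 3 panels from motoneurons over V2a to V2a over V3; bars are exact 95% counting intervals and the vertical line marks a ratio of 1. let-7e-3p was 4.12 times as high in V2a as in V3, whereas let-7a-1-3p plus let-7c-2-3p stood at 0.286 of the V3 level.

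Of the 6 passenger rows that reached 2.40 TPM in at least 1 E12.5 library, 3 were at least 2-fold lower and 0 higher in motoneurons than in V2a, on the log2(TPM + 1) scale. Among all 1009 rows considered, 28.0% were lower and 16.1% higher. Against V3, 4 of the 6 were at least 2-fold lower in motoneurons and 0 higher, where 14.8% of all rows were lower and 28.4% higher. Between V2a and V3, 2 rows were higher and 2 lower in V2a, beside 32.3% and 9.91% of all rows. The median log2 ratios of the 6 rows were -0.94 (motoneurons over V2a), -1.27 (motoneurons over V3) and -0.54 (V2a over V3), beside medians of -0.30, 0.24 and 0.52 over all rows. On totals without the 5 most abundant miRNAs the medians over all rows were -0.94, -0.48 and 0.40; against V3 the motoneuron log2 ratio was then -2.12 for let-7a-1-3p and let-7c-2-3p each and -2.29 for let-7b-3p, where it had been -1.27 and -1.40. These 3 ratios are built from the same 3 libraries, and 2 of the 6 rows are one measurement.

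Over all 10 rows the passenger share of let-7 reads had its lowest values in motoneurons at both stages. It was 0.479% and 0.588% in E10.5 motoneurons against 0.972% and 1.15% in GFP-negative cells, and 0.569% in E12.5 motoneurons, 1.30% in V2a and 1.11% in V3. The E12.5 intervals were 0.523 to 0.617% for motoneurons, 1.23 to 1.37% for V2a and 1.06 to 1.17% for V3. At E10.5 they were 0.352 to 0.636% and 0.412 to 0.814% for motoneurons, against 0.813 to 1.15% and 0.956 to 1.38% for GFP-negative cells. The interval of motoneuron replicate 2 met that of GFP-negative replicate 1 at their edges. The share was not tested across libraries. It leaves out let-7c-1-3p, although Mirlet7c-1 also encodes let-7c-5p, and let-7d-3p gave the largest part of its passenger reads. By hairpin at E12.5, motoneurons were lowest for let-7d. For let-7a-1 plus let-7c-2 the share was 0.184% in motoneurons (0.153 to 0.220%) and 0.188% in V2a (0.154 to 0.227%), which were not told apart. For let-7f, motoneurons had 0 passenger reads against 3 in V3, and those intervals overlapped. Motoneurons were not lowest for let-7e (0.234% against 0.114% in V3) or let-7b (1.73% against 0.798% in V3). Nor were they for let-7i and let-7g, which had 6 and 3 passenger reads in motoneurons.

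The miR-99, miR-100 and miR-125 genes neighbour let-7 hairpins in several genomic clusters. Of their 11 rows, 9 were tested at E10.5, where 2 were higher in motoneurons and 0 lower. Among all 492 rows tested, 11.6% were higher and 30.7% lower. Which miR-99, miR-100 and miR-125 genes lie beside the 10 hairpins described was not examined. miR-99a-5p had 21911 and 27939 RPM in motoneurons, against 14108 and 17205 RPM in GFP-negative cells (log2 fold change 0.67, SE 0.18, limma adjusted p = 0.0238). For miR-100-5p the levels were 19043 and 21597 RPM in motoneurons, against 11611 and 14280 RPM in GFP-negative cells (0.66, SE 0.16, limma adjusted p = 0.0170); these 2 rows share reads. miR-99b-5p (-0.40), miR-125a-5p (-0.32) and miR-125b-5p (-0.20) did not pass the test.

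The 5 miRNAs outside the family whose pattern was most like the summed passenger level were found by Pearson's r over the 7 libraries, on log2 values centred within each table. Of 400 candidates these were miR-96-5p (r = 0.993), miR-676-3p (0.975), miR-92a-1-5p (0.946), miR-3473b (0.940) and miR-3535 (0.924). miR-96-5p had 159 and 174 RPM in motoneurons against 491 and 615 RPM in GFP-negative cells, and 1.62 TPM in E12.5 motoneurons, 3.62 TPM in V2a and 7.13 TPM in V3. miR-676-3p had 151 and 166 RPM in motoneurons against 282 and 410 RPM in GFP-negative cells. The likeness rests on 7 libraries that share groups, depth and scaling.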

How the data were processed

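Small RNA libraries of 7 sorted spinal cell samples were used as deposited by the authors. Reads were aligned with Bowtie2, per the submitters' processing notes; for its version, and for the counting tool, build, annotation and filters, nothing is given in the sources used here. The deposited E10.5 values were taken as RPM, since each library sums to 1000000; the deposited E12.5 values behave as FPKM over about 22 nt and were rescaled to TPM. Neither header names a unit. Reads were recovered from the steps between low values. Single-row bundles gave whole reads (within 0.05) for 97.5 to 100% of E10.5 values and 76.8 to 80.6% of E12.5 values; E12.5 read counts are therefore estimates. Bundles are given for E10.5 only.

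E10.5 rows that reached 15.2 RPM (10 reads in a library of median depth) in 2 or more libraries were tested on log2(RPM + 1) with limma 3.58.1 in R 4.3.3, with a mean-variance trend and Benjamini-Hochberg adjustment over all 492 rows (threshold 0.05, two-sided); the code was tested on simulated data. Strand ratios were fitted alike over 141 of 807 hairpins. E12.5 used folds of at least 2 and exact counting intervals computed in SciPy 1.17.1. Named miRNAs were the 10 members, their guides, the most-read arm of each miR-99, miR-100 and miR-125 neighbour, and the 5 closest patterns. Members and lists were chosen with earlier results of these data known. Alternatives covered pseudocount, filter, scaling, bundle summing, variance trend, replicate block and leaving out each library. Same-numbered E10.5 libraries deviated together with r = 0.261 over 492 rows, but with 2 pairs and no label that names a shared litter or day the numbers were not used as a pairing.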

Additional observations from a re-analysis of the deposited data

How the results depend on the processing

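let-7a-1-3p and let-7c-2-3p met the 15.2 RPM filter only through the GFP-negative libraries. They were not tested when each of the 4 libraries had to reach that level, nor without either GFP-negative library. Those settings could therefore not challenge their lower call. Their lower call held under every alternative in which they were tested, including that open to any row with a read (limma adjusted p = 0.0253). That of let-7d-3p was lost under 3 scalings, with only rows at 0 removed (adjusted p = 0.0769) and without 3 of the 4 libraries in turn; let-7e-3p passed only without the variance trend (adjusted p = 0.0275). Passenger rows called lower numbered 3, 1 with 10 reads required in all 4 libraries, and 0 to 2 when a library was left out. Guides called lower numbered 6, but 3 after quantile normalization and 1 of 1 with the bundle summed; guides called higher numbered 0, but 1 with median-of-ratios scaling, 3 with quantile normalization, 2 on totals without the 5 most abundant miRNAs and 1 with the replicate block. The sign reversed for let-7e-5p (0.07, 0.60 and 0.17 under those 3 scalings). let-7b-5p and let-7c-5p stayed positive as rows, whereas the summed bundle that holds them had -0.62. The summed passenger difference of -1.57 was -1.29 with median-of-ratios scaling, -1.19 on totals without the 5 most abundant miRNAs, and -1.76 to -1.36 when a library was left out. At E12.5, the 3 rows lower in motoneurons than in V2a became 1 with a pseudocount of 10 and 1 at a 4-fold limit, the 4 lower than in V3 became 1 and 0, the 2 higher in V2a than in V3 became 0 and 0, and the 2 lower became 0 at 4-fold. The causes were not tested.

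With the replicate number as a block, 3 passenger rows were lower and 0 higher, let-7d-3p had an adjusted p of 0.0260 and the pair 0.00603, let-7b-5p was called higher (adjusted p = 0.0449), and 0 strand ratios passed; no other call changed. Depth limits the 6 passengers with at most 5 reads in each E10.5 library, and 1 library per population leaves E12.5 without replicate error.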

Other observations

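Of the 12 let-7 passenger rows in the tables, 2 were outside the set described. let-7c-1-3p had 19.9 and 30.4 RPM in E10.5 motoneurons, against 23.1 and 44.6 RPM in GFP-negative cells, groups that overlapped (log2 fold change -0.37, SE 0.47, limma adjusted p = 0.564). At E12.5 it had 38.3 TPM in motoneurons, 8.67 TPM in V2a and 23.3 TPM in V3 (136, 39 and 97 reads). The motoneuron level was 4.46 times that of V2a (exact counting interval 3.10 to 6.54) and 1.66 times that of V3 (1.27 to 2.18), an order unlike that of let-7d-3p, which was lowest in motoneurons. let-7a-2-3p had 3 and 1 reads in E10.5 motoneurons, against 1 and 1 in GFP-negative cells, and 0, 5 and 1 reads in E12.5 motoneurons, V2a and V3. Their sequences, from RefSeq (GRCm38.p6) with the seed in capitals, differ from each other and from all 10 passengers described:
let-7c-1-3p: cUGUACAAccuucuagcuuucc
let-7a-2-3p: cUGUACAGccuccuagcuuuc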
